A study of Mus musculus with 2 samples.

Results

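The 8 chemokine genes Ccl22, Ccl17, Ccl5, Ccl3, Ccl4, Cxcl9, Cxcl10 and Cxcl16 were followed through splenic dendritic cells (DC) of 2 mouse genotypes. They were chosen by name, with earlier results of these data known. Each matched a single gene of the count table, and they are 8 of the 32285 genes counted.

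The WT mice carried H2-Aa +/+ and the mutants H2-Aa cit/cit (cit/cit below), the citation allele of the gene for the MHC-II alpha chain. Both groups were naive female mice, given in the labels as 4 months old. Splenocytes were enriched for CD11c, live CD45.2+ CD11c+ cells were sorted, and 3 mice per genotype went into 1 library of 3′ transcripts, with no record in the files of which mouse a cell came from. Each genotype was therefore measured 1 time, no difference between genotypes could be tested, and animal, sort and library cannot be told apart from genotype.

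Chemokines are small secreted proteins that steer leukocytes through G protein-coupled receptors. CCL22 and CCL17 bind CCR4, which is found on regulatory and helper T cells, CCL5, CCL3 and CCL4 are inflammatory CC chemokines that attract monocytes and T cells, CXCL9 and CXCL10 are interferon-induced ligands of CXCR3 on activated T and NK cells, and CXCL16 is a membrane-bound ligand of CXCR6 that can be shed. DC make them in a subset-specific way: mature CCR7+ DC are known as a source of CCL22, CCL17 and CXCL16, and the cross-presenting cDC1 as a source of CXCL9 and CXCL10.

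The genes lie in 4 places of the GRCm38 genome (GENCODE vM21 annotation). Ccl22 (ENSMUSG00000031779, chr8:94745590-94751699, + strand) and Ccl17 (ENSMUSG00000031780, chr8:94810453-94812036, + strand) have Cx3cl1 between them. Ccl5 (ENSMUSG00000035042, chr11:83525778-83530518, − strand), Ccl3 (ENSMUSG00000000982, chr11:83647844-83649355, − strand) and Ccl4 (ENSMUSG00000018930, chr11:83662584-83664683, + strand) are in the CC cluster of chromosome 11, the last pair 13228 bases apart. Cxcl9 (ENSMUSG00000029417, chr5:92321347-92328079, − strand) and Cxcl10 (ENSMUSG00000034855, chr5:92346638-92348889, − strand) are 18558 bases apart on chromosome 5. Cxcl16 (ENSMUSG00000018920, chr11:70453983-70459984, − strand) overlaps Zmynd15 on the other strand, and Cxcl10 overlaps Art3 on the other strand.

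Cxcl9 and Cxcl10 neighbor each other and share a receptor, so the 250 bases before their start sites are shown side by side. Sequences are from RefSeq (GRCm38.p6), read 5′ to 3′ on the gene's own strand, from chr5:92328080-92328329 for Cxcl9 and chr5:92348890-92349139 for Cxcl10. Capitals mark exact matches to 3 motifs searched on both strands. The motifs were the interferon-stimulated response element (a pair of GAAA separated by any 2 bases), the gamma-activated site (TTCNNNGAA) and the kappa B site (GGGRNNYYCC). N stands for any base, R for A or G and Y for C or T.
Cxcl9: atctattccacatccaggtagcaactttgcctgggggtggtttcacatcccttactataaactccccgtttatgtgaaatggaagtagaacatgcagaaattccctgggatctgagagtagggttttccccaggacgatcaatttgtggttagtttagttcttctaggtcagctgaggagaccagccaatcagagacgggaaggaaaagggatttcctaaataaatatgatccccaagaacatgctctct
Cxcl10: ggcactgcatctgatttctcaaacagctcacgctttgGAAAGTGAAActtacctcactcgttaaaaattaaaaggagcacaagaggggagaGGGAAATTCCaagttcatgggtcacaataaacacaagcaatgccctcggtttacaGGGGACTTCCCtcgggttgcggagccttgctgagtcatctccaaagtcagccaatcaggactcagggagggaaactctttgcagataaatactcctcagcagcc

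The Cxcl10 window held 1 interferon-stimulated response element, at −213 to −204 from the start, and 3 kappa B matches, at −159 to −150, −104 to −95 and −103 to −94, the last pair overlapping each other. None of the 3 motifs had an exact match in the Cxcl9 window. Looser forms of the motifs were not searched, so a window without a match may still hold such elements. Promoters were at hand for 5 of the 8 genes, Ccl22, Ccl17, Ccl3, Cxcl9 and Cxcl10. Ccl17 had a gamma-activated site match at −99 to −91, and Ccl22 and Ccl3 had no match. Among 32851 promoters of the same length, 2.98% held the interferon-stimulated response element, 7.02% the gamma-activated site and 7.25% the kappa B site.

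The WT library held 7814 cells and 51020804 unique molecular identifiers (UMIs, each standing for 1 captured transcript), the cit/cit library 11525 cells and 72652201 UMIs, with medians of 5492 and 5633 UMIs per cell. The libraries shared 31 cell barcodes. H2-Aa itself, the mutated gene, was at 5410 CPM (UMIs per 1000000 UMIs) in WT against 66.2 CPM in cit/cit cells, a log2 ratio of −6.35. Cells were sorted into classes by the number of distinct marker genes with a UMI, and class names below stand for these marker gates (cDC1 means cDC1-like by marker count). The gate minimums were set after the values had been seen. The 8 classes with at least 50 cells in each library were mature DC (2003 WT and 1293 cit/cit cells), cDC1 (540 and 626), cDC2 (3102 and 5935), Ccr2 cDC2 (326 and 1128), cycling cells (293 and 587), plasmacytoid DC or pDC (115 and 123), monocyte-like cells (223 and 298) and macrophages (162 and 98). Of markers kept out of the gates, those highest in their own class were 10 of 10 for mature DC, 6 of 9 for cDC1, 8 of 8 for cycling cells, 7 of 7 for pDC, 3 of 6 for monocyte-like cells and 5 of 6 for macrophages. For cDC2 it was 0 of 8 and for Ccr2 cDC2 1 of 6, although 6 of 8 and 6 of 6 were above their level in cDC1, so these classes are less cleanly separated. Another 984 WT and 1373 cit/cit cells passed no gate.

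Levels below are UMIs of a gene per 1000000 UMIs of its class (CPM), with exact Poisson 95% intervals, and ratios are log2 of cit/cit over WT with exact conditional binomial 95% intervals. All intervals cover counting error only. A ratio was compared where a gene had at least 20 UMIs over both libraries in the class, which 45 of the 64 gene and class pairs reached. Of these 45 pairs, 18 (40.0%) were past 1.5-fold higher in cit/cit cells, 11 (24.4%) past 1.5-fold lower and 16 neither. Among all gene and class pairs the shares were 8.40% higher and 9.21% lower. The members were chosen with earlier results of these data known, so the gap to these shares is a description and no test. By class, 12.0% of genes were past 1.5-fold higher and 8.24% lower in mature DC, 11.6% and 10.9% in cDC1, 4.72% and 9.78% in cDC2, 6.46% and 6.41% in Ccr2 cDC2, 6.43% and 6.29% in cycling cells, 7.49% and 8.51% in pDC, 8.16% and 11.7% in monocyte-like cells and 11.5% and 13.4% in macrophages. The higher pairs were mostly those of Cxcl10 (5), Cxcl9 (4), Ccl5 (3) and Ccl4 (3), and the lower pairs those of Cxcl16 (6) and Ccl22 (2).

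**Figure D1:**
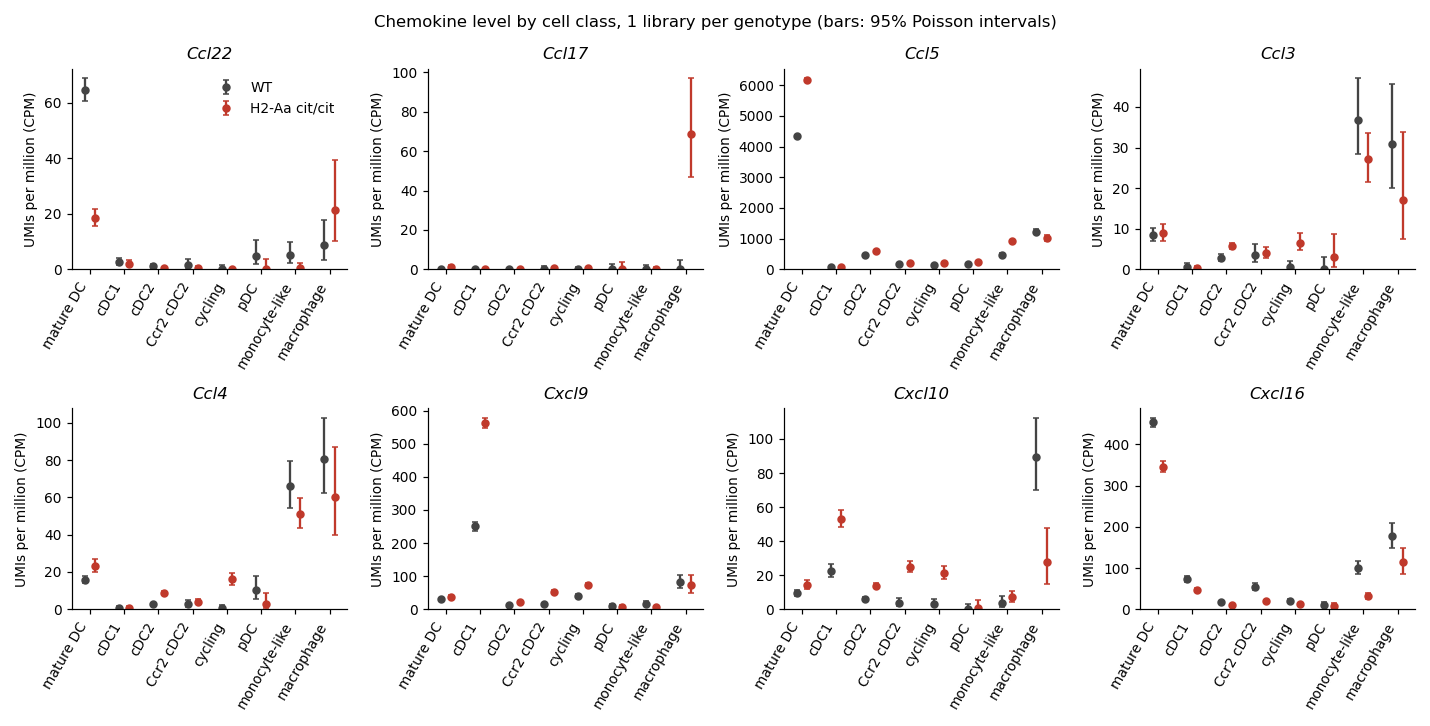
CPM of each chemokine (y axis, linear) in the 8 cell classes (x axis) of the WT library (grey) and the cit/cit library (red), with 95% Poisson intervals. Ccl22 and Cxcl16 were highest in WT mature DC, Ccl5 in cit/cit mature DC and Cxcl9 in cit/cit cDC1, and the Ccl17 point of cit/cit macrophages, at 68.7 CPM, rests on 32 UMIs.

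**Figure D2:**
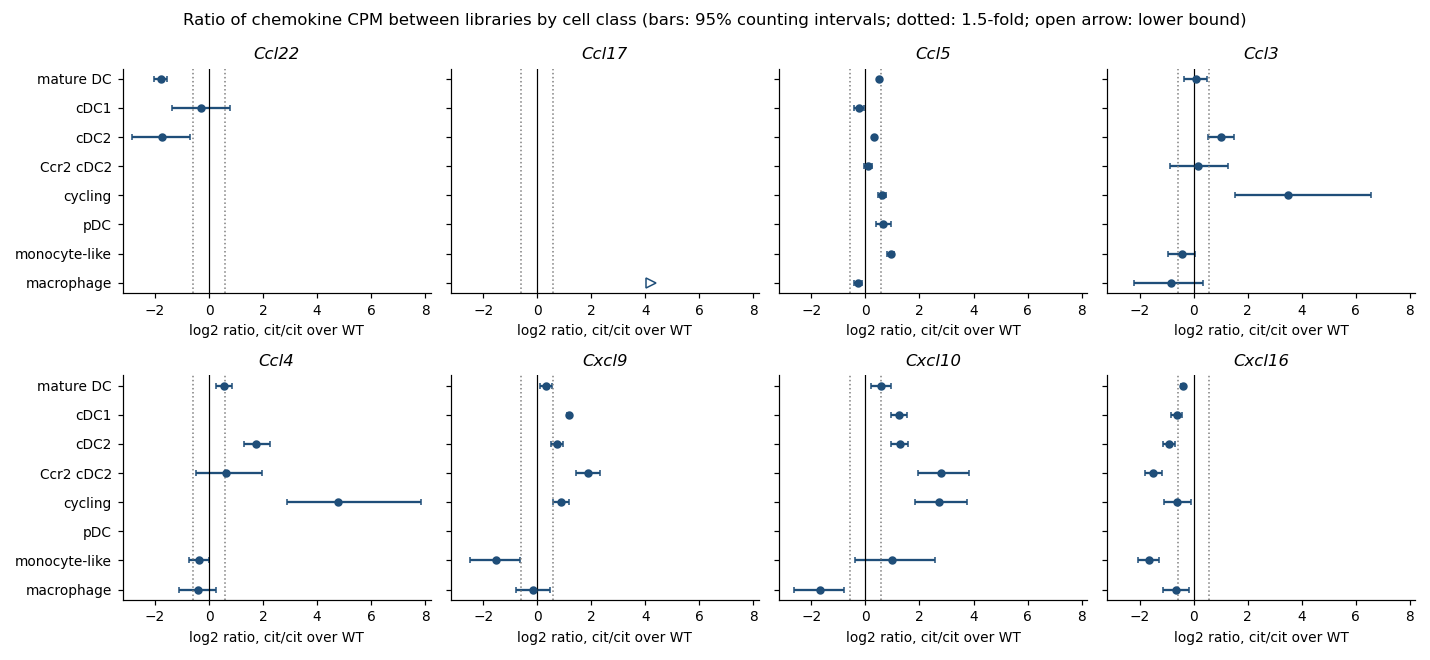
Log2 ratio of cit/cit over WT CPM (x axis) in each class (y axis) for pairs with at least 20 UMIs, with 95% counting intervals. Dotted lines mark 1.5-fold and the open arrow a lower bound. All 7 intervals of Cxcl16 lie below 0, and the Cxcl10 points lie above 0 except in macrophages.

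Ccl22, the CCR4 ligand typical of mature DC, was the member with the largest loss over whole libraries. It was at 64.7 CPM (60.8 to 68.9; 990 UMIs) in WT mature DC and 18.7 CPM (15.8 to 21.9; 150 UMIs) in cit/cit mature DC, a log2 ratio of −1.80 (−2.05 to −1.55), or 3.47-fold. Mature DC gave 92.5% of all Ccl22 UMIs of the WT library and 75.8% of those of the cit/cit library. Outside mature DC the WT levels ran from 0.29 CPM in cycling cells to 8.67 CPM in macrophages, and all of them lay below the mature DC interval. Only 3 classes had the 20 Ccl22 UMIs needed for a ratio. In cDC2, the only other one of these past 1.5-fold, it was at 1.33 and 0.40 CPM (−1.74; −2.84 to −0.69), from 23 and 13 UMIs. In cit/cit cells, the 21.5 CPM of macrophages came from 10 UMIs, 8 of them in 1 cell, and its interval overlapped that of mature DC.

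Few mature DC carried most of the Ccl22. The highest WT mature cells had 67, 55 and 31 UMIs and the highest cit/cit mature cells 23, 12 and 10, while the median cell of either library had 0. After thinning every cell to 1500 UMIs, 4.34% (3.48 to 5.34, exact Clopper-Pearson) of 1959 WT and 1.66% (1.03 to 2.53) of 1265 cit/cit mature cells had a Ccl22 UMI, and 44 and 28 shallower cells were left out. Unthinned, the shares were 13.7% and 4.56%, at median depths of 6718 and 5237 UMIs. In pDC, which are not a known source, 1 of 114 WT cells and 0 of 122 cit/cit cells (which allows up to 2.46%) had a Ccl22 UMI after thinning, at medians of 10645 and 7809 UMIs before it.

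Within mature DC, Ccl22 was highest in the cells that showed the most gate markers. The 6 mature markers (Ccr7, Fscn1, Socs2, Cacnb3, Il4i1 and Nudt17) were all detected in 33.2% of WT and 17.7% of cit/cit mature cells. At 3, 4, 5 and 6 markers the WT level of Ccl22 was 24.5, 21.8, 47.3 and 102 CPM. The cit/cit level was 10.5, 11.1, 14.0 and 45.3 CPM, lower than WT at each number of markers. The ratio with all 6 markers was −1.18 (−1.55 to −0.82), smaller than that over all mature DC, so the lower Ccl22 moved together with the lower marker number but was also seen at equal number. Cells with more markers were also deeper, with medians of 8374 and 5908 UMIs at 6 markers against 4195 and 4892 at 3.

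Ccl22 was also higher in WT mature cells with cDC1 markers than in those without, and in cit/cit mature cells only with 1 such marker. WT mature cells with 0, 1 and at least 2 of the 7 cDC1 markers had 30.5, 111 and 126 CPM of Ccl22. For cit/cit mature cells these values were 16.1, 32.6 and 15.5 CPM, the last from 9 UMIs in 36 cells. Cells with at least 2 cDC1 markers made up 7.74% of WT and 2.78% of cit/cit mature DC, and their median depth was 14546 and 13609 UMIs. Leaving out every mature cell with a cDC1 marker moved the log2 ratio of Ccl22 to −0.92 (−1.27 to −0.59). Over the 9 alternative settings the ratio stayed between −1.93 and −0.92.

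Of 6 genes that act on CCR4 ligand expression (Irf4, Stat6, Il4ra, Crlf2, Csf2rb and Csf2ra), only Il4ra, the IL-4 receptor alpha chain, was past 1.5-fold in mature DC. It was lower, 81.7 CPM in WT and 52.5 CPM in cit/cit cells (−0.64; −0.80 to −0.48), against 8.24% of all genes lower in that class. The median of the 6 ratios was −0.02. None of 9 NF-kB subunits and inhibitors was past 1.5-fold in mature DC, with a median of −0.15. The median over all genes tested there was 0.09.

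**Figure D3:**
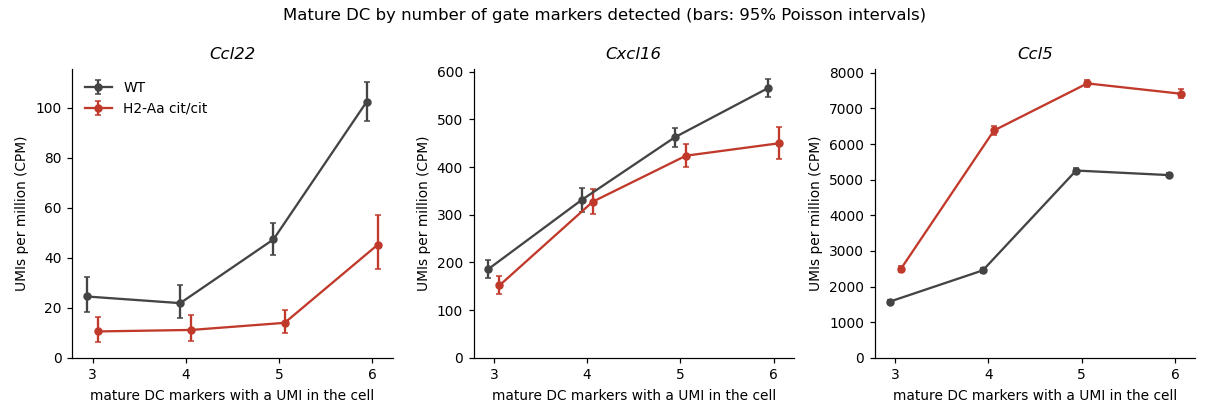
CPM (y axis, linear) of Ccl22, Cxcl16 and Ccl5 in mature DC by the number of the 6 mature markers with a UMI in the cell (x axis), WT grey and cit/cit red, with 95% Poisson intervals. Ccl22 and Cxcl16 were higher with 6 markers than with 3 in both libraries, and Ccl5 was higher in the cit/cit library at every number.

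Ccl17, the other CCR4 ligand, was near the detection limit. It had 6 UMIs in 4 WT cells and 57 UMIs in 20 cit/cit cells. A single cit/cit macrophage-gated cell held 31 of the 57, and mature DC held 4 UMIs in WT and 11 in cit/cit cells. Macrophages were the only class with 20 UMIs, 0 in WT and 32 in cit/cit, at least 18.5-fold higher against a floor of 3 UMIs, with 31 of the 32 in that 1 cell. Without it the pair had too few UMIs for a ratio. Only 2 WT and 1 cit/cit mature cells had UMIs of both Ccl22 and Ccl17. Cx3cl1, which lies between them and encodes the membrane-bound fractalkine, stood at 3.40 CPM in WT and 1.37 CPM in cit/cit mature DC (−1.31; −2.40 to −0.36), from 52 and 11 UMIs.

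Ccl5, an inflammatory CC chemokine made by many T cells, NK cells and DC, had a UMI in 5135 of the WT and 7528 of the cit/cit cells. Its log2 ratio was above 0 in 6 of the 8 classes, past 1.5-fold in 3. It stood at 4341 CPM (4308 to 4374) in WT and 6179 CPM (6125 to 6234) in cit/cit mature DC, a log2 ratio of 0.51 (0.49 to 0.53) that is just under 1.5-fold. It went past 1.5-fold when cells with the highest doublet scores were left out (0.69; 0.67 to 0.71) or when cells were weighted equally (0.71). At 3, 4, 5 and 6 mature markers the ratio was 0.66, 1.38, 0.55 and 0.53. By cDC1 markers, Ccl5 was lower in mature cells with at least 2 of them, 2371 CPM in WT and 2464 CPM in cit/cit cells, than in those with 0, 4681 and 6697 CPM.

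Monocyte-like cells held the largest Ccl5 difference of the 8 classes. The level was 482 CPM (450 to 516) in WT and 918 CPM (884 to 952) in cit/cit monocyte-like cells (0.93; 0.82 to 1.04), and 15.2% against 32.9% of the cells had at least 5 UMIs. The 12 monocyte-like markers summed to 3889 CPM in WT and 2052 CPM in cit/cit cells of this class, and none of them was at 0. The 13 macrophage markers there summed to 906 and 300 CPM, with 3 and 1 of them at 0. The part of these markers in the result was not tested.

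In cDC2, Ccl5 stood at 474 CPM (464 to 484) in WT and 586 CPM (578 to 595) in cit/cit cells (0.31; 0.27 to 0.34). The ratio lay between 0.14 and 0.36 over 8 alternatives. It was lowest, 0.14 (0.11 to 0.18), with 1 marker more for every gate, and 0.17 (0.13 to 0.21) without cells under 6% ribosomal protein UMIs. After thinning, 37.4% (35.7 to 39.2) of 2967 WT and 43.5% (42.2 to 44.9) of 5604 cit/cit cDC2 had a Ccl5 UMI, with 135 and 331 cells left out. The unthinned shares were 65.5% and 69.7%. Comparable shares in cDC1, the class lowest in Ccl5, were 11.05% (8.52 to 14.0) of 534 cells and 8.199% (6.17 to 10.6) of 622 cells, at median depths of 9380 and 14077 UMIs against 4742 and 5463 in cDC2.

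Several classes had Ccl5 levels near or below those of the erythroid gate, which held few cells of this CD11c sort. Its 20 WT and 14 cit/cit cells had 156 CPM (15 UMIs) and 363 CPM (28 UMIs, 19 of them in 1 cell). Levels were 73.6 and 62.2 CPM in cDC1, below both values, and 180 and 192 CPM in Ccr2 cDC2. Cycling cells were at 140 and 213 CPM (0.61; 0.45 to 0.76; 0.31 when cells were weighted equally). The pDC were at 159 and 253 CPM (0.67; 0.39 to 0.94), and both of these ratios were past 1.5-fold. Within cycling cells the Ccl5 ratio was under 1.5-fold in both strata of cDC1 markers. It was 0.38 (0.22 to 0.54) in cells with fewer than 3 and 0.36 (−0.24 to 0.98) in cells with at least 3. The latter were 25.9% of WT and 13.5% of cit/cit cycling cells. Whether the erythroid-gated cells lack Ccl5, or measure a background, was not tested. In pDC, 1 cell of each library held 97 of the 200 and 257 UMIs. Macrophages had 1221 CPM in WT and 1012 CPM in cit/cit cells (−0.27; −0.43 to −0.11), and 1 WT cell had 335 of the 986 UMIs. The macrophage ratio ranged from −1.06 to −0.09 over 8 alternatives and went past 1.5-fold in 3 of them.

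Ccl3 and Ccl4, the macrophage inflammatory proteins 1-alpha and 1-beta, were rare in DC and highest in monocyte-like cells and macrophages among the 8 classes. Ccl3 stood at 36.8 CPM (28.3 to 47.1) in WT and 27.1 CPM (21.5 to 33.6) in cit/cit monocyte-like cells, and Ccl4 at 66.0 CPM (54.4 to 79.4) and 51.2 CPM (43.4 to 59.9). Those intervals overlapped between libraries for both genes, although the ratio interval of Ccl4 (−0.37; −0.73 to −0.005) lay just below 0. For Ccl3 the log2 ratio was −0.44 (−0.94 to 0.05), and it turned to 0.23 (−0.39 to 0.87) without the highest cell of each library and to 0.94 (0.31 to 1.61) without cells of the highest doublet scores. The highest WT cell had 30 of the 63 Ccl3 UMIs, and the ratio of Ccl4 likewise went from −0.37 to 0.44 without the cell that had 63 of its 113 WT UMIs.

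In cDC2 both genes were higher in cit/cit cells. Ccl3 stood at 2.84 CPM (2.10 to 3.75; 49 UMIs) in WT and 5.72 CPM (4.93 to 6.61; 186 UMIs) in cit/cit cDC2, a ratio of 1.01 (0.55 to 1.50). Ccl4 was at 2.61 CPM (1.90 to 3.49; 45 UMIs) and 8.77 CPM (7.78 to 9.85; 285 UMIs), a ratio of 1.75 (1.29 to 2.24), which fell to 0.50 (0.14 to 0.87) when every gate needed 1 marker more. After thinning, 0.47% (0.26 to 0.79) of WT and 0.82% (0.60 to 1.09) of cit/cit cDC2 had a Ccl4 UMI, against 0 of 534 and 0 of 622 cDC1, which allows up to 0.56% and 0.48%. The unthinned Ccl4 shares were 0.77% and 1.65% in cDC2 and 0.74% and 0.80% in cDC1. Of the 14 immediate-early genes, which respond to cell handling and activation, 4 were past 1.5-fold lower in cit/cit cDC2 (Jun, Egr1, Egr2 and Zfp36, with a list median of −0.34) and none higher, against 9.78% of genes lower and 4.72% higher in that class, and their part in the result was not tested.

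For mature DC, Ccl3 was at 8.501 and 8.95 CPM (0.07; −0.36 to 0.50) and Ccl4 at 15.8 and 23.1 CPM (0.55; 0.27 to 0.84). The Ccl4 ratio passed 1.5-fold under 4 of 9 alternatives and ranged from 0.12 to 0.95. In Ccr2 cDC2, Ccl3 was at 3.56 and 3.93 CPM and Ccl4 at 2.59 and 4.04 CPM (0.64; −0.48 to 1.95), the last ratio dropping below 1.5-fold under 3 of 8 alternatives. Cycling cells had 2 WT and 40 cit/cit UMIs of Ccl3 (3.48; 1.53 to 6.57) and 2 and 98 UMIs of Ccl4 (4.77; 2.88 to 7.83). In cit/cit cells, 92 of the 98 Ccl4 UMIs and 20 of the 40 Ccl3 UMIs each lay in 1 cell. Without the top cells the Ccl3 ratio was 1.89, and Ccl4 had too few UMIs for a ratio. The thinned shares of cycling cells with Ccl4 were 0.36% (0.01 to 1.99) and 0.70% (0.19 to 1.77). In macrophages the Ccl3 ratio was −0.85 (−2.21 to 0.34), from 25 and 8 UMIs, and the Ccl4 ratio −0.42 (−1.11 to 0.24) moved to −2.22 (−3.91 to −0.88) without the top cell of each library, which had 24 and 23 UMIs.

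A few lymphoid cells weighed on the whole-library values of this pair. The NK-like gate held 33 WT and 28 cit/cit cells, and 40.1% of all WT Ccl4 UMIs and 32.3% of all WT Ccl3 UMIs lay there. Their level of Ccl4 was 2243 CPM in WT and 218 CPM in cit/cit cells, and that of Ccl3 was 811 and 115 CPM. The highest 3 WT cells had 141, 123 and 119 of 423 Ccl4 UMIs, so this rests on a handful of cells. Ccl5 was at 6428 and 5962 CPM in the same cells. Among the 8 classes, the 14 NK markers summed to between 27.3 CPM (WT mature DC) and 215 CPM (WT pDC), with 4 to 11 of the 14 at 0, and to 51.5 CPM in WT and 57.1 CPM in cit/cit cDC2.

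Cxcl9, the interferon-gamma-induced ligand of CXCR3, was highest in cDC1 in both libraries. Its level there was 250 CPM (238 to 263; 1477 UMIs) in WT and 562 CPM (547 to 578; 4919 UMIs) in cit/cit cells, a log2 ratio of 1.17 (1.08 to 1.25), or 2.25-fold. The next class in order was macrophages in WT, at 81.7 CPM (63.2 to 104), and macrophages or cycling cells in cit/cit, at 73.0 and 72.9 CPM with overlapping intervals. The cDC1 held 56.6% of the Cxcl9 UMIs of the WT library and 69.7% of those of the cit/cit library. The ratio lay between 1.03 and 1.36 over 8 alternatives, the upper end without the top cell of each library, since 1 WT cell alone had 272 UMIs.

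The added Cxcl9 came from cells with many UMIs. At least 20 UMIs were counted in 11 of 540 WT and 61 of 626 cit/cit cDC1, and 5 to 19 in 64 and 76. Cells with 20 or more held 45.0% of the WT and 78.9% of the cit/cit Cxcl9 UMIs of the class. The unthinned share of cDC1 with any Cxcl9 UMI was 43.3% and 48.7%. Thinned to 1500 UMIs it was 17.6% (14.5 to 21.1) of 534 and 24.3% (21.0 to 27.8) of 622 cells, with 6 and 4 left out, so it was higher at matched depth too, although the intervals just overlap. In pDC the thinned shares were 0.88% and 0.82%, 1 cell each, and the unthinned 5.22% and 2.44%.

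**Figure D4:**
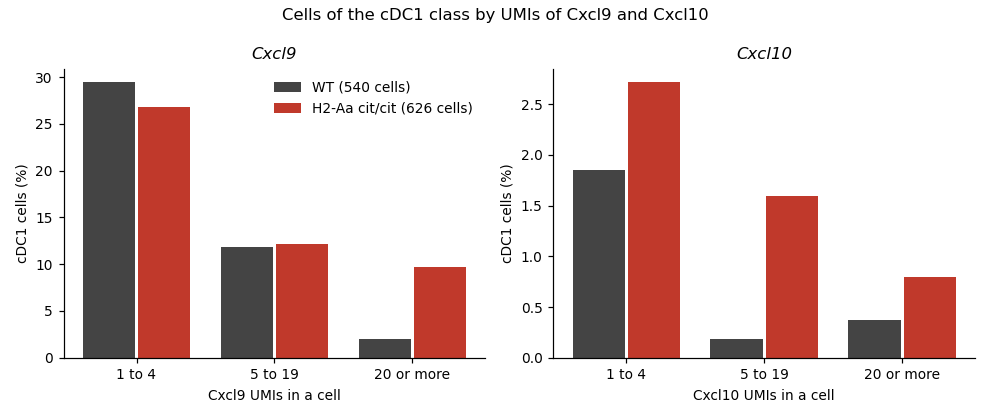
Share of cDC1 (y axis, percent of the cells of the class) with 1 to 4, 5 to 19 and 20 or more UMIs (x axis) of Cxcl9 and Cxcl10, WT grey (540 cells) and cit/cit red (626 cells). The group with 20 or more Cxcl9 UMIs held 11 WT and 61 cit/cit cells.

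Cxcl10, the second CXCR3 ligand, was found in far fewer cDC1. It stood at 22.4 CPM (18.7 to 26.5) in WT and 53.0 CPM (48.3 to 58.1) in cit/cit cDC1 (1.24; 0.96 to 1.53). Only 13 WT and 32 cit/cit cDC1 had a UMI, and the highest WT cells had 77, 36 and 6 UMIs and the highest cit/cit cells 79, 74 and 60. Without the top cell of each library the ratio was 2.24 (1.83 to 2.67). After thinning, 1.12% (0.41 to 2.43) of WT and 2.73% (1.60 to 4.34) of cit/cit cDC1 had a UMI, against 2.41% and 5.11% unthinned and 0 of 114 and 0 of 122 pDC (up to 2.63% and 2.46%). Nearly all Cxcl10+ cDC1 also had Cxcl9, 13 of 13 in WT and 28 of 32 in cit/cit cells, while 41.9% and 46.6% of the cDC1 without Cxcl10 had it.

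Of 11 interferon signalling genes, Irf1, an interferon-induced transcription factor, was the one past 1.5-fold in cDC1. It stood at 77.3 CPM in WT and 125 CPM in cit/cit cDC1 (0.70; 0.54 to 0.86), against 11.6% of genes higher in that class, and the median of the 11 ratios was −0.05. The 6 T-cell markers summed to 0.85 CPM in WT and 0.23 CPM in cit/cit cDC1, with 5 of 6 at 0 in each. The class was deeper in the cit/cit library, with a median of 14077 against 9380 UMIs per cell, and its part in the per-cell counts is removed only in the thinned shares.

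Outside cDC1, both CXCR3 ligands were past 1.5-fold higher in cit/cit cells of cDC2, Ccr2 cDC2 and cycling cells. The erythroid gate had a Cxcl9 level of 187 CPM in WT (18 UMIs, 13 of them in 1 cell) and 12.98 CPM in cit/cit cells (1 UMI). Whether these few cells measure a background was not tested. The WT levels of these 3 classes were below that WT value. In cDC2, Cxcl9 was at 13.8 and 22.7 CPM (0.72; 0.51 to 0.94) and Cxcl10 at 5.74 and 13.8 CPM (1.26; 0.95 to 1.59). With 1 marker more for every gate these ratios fell to 0.32 (0.13 to 0.52) and 0.22 (−0.04 to 0.48), so neither stayed past 1.5-fold, and that of Cxcl9 was 0.47 when cells were weighted equally. The thinned share of cDC2 with Cxcl9 was 1.52% (1.11 to 2.02) in WT and 1.37% (1.09 to 1.71) in cit/cit, which does not follow the CPM, and the unthinned shares were 3.38% and 3.47%. For Cxcl10 it was 0.47% (0.26 to 0.79) and 0.95% (0.71 to 1.24).

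Ccr2 cDC2 had the largest Cxcl9 ratio of any class, 14.6 CPM (10.6 to 19.5) in WT and 52.8 CPM (48.3 to 57.7) in cit/cit cells (1.86; 1.42 to 2.33), which moved to 1.15 (0.66 to 1.66) with 1 marker more. Cxcl10 was at 3.56 CPM (1.78 to 6.36; 11 UMIs) and 24.98 CPM (21.9 to 28.4; 235 UMIs), a ratio of 2.81 (1.95 to 3.83). The shares of cells hardly differed: thinned, 2.18% and 2.22% had Cxcl9 and 0.62% and 0.80% had Cxcl10. What differed was the mean number per positive cell, 1.88 and 7 UMIs for Cxcl9 and 1.38 and 8.70 for Cxcl10. These means rest on few cells. In the cit/cit library, 7 of 71 positive cells held 62.2% of the Cxcl9 UMIs, and 4 of 27 held 68.9% of the Cxcl10 UMIs. Most positive cit/cit cells had 1 to 4 UMIs, 53 for Cxcl9 and 19 for Cxcl10. A single cit/cit cell had 77 of the 235 Cxcl10 UMIs, and the ratio stayed at or above 2.53 under all 8 alternatives, that without the top cells included.

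Among cycling cells, Cxcl9 went with the cDC1 markers. Cells with at least 3 cDC1 markers had 91.1 CPM of Cxcl9 in WT (76 cells) and 267 CPM in cit/cit (79 cells), a ratio of 1.55 (1.25 to 1.86). Other cycling cells had 8.10 and 10.4 CPM (0.36; −0.46 to 1.25). Over the whole cycling class Cxcl9 was at 39.8 and 72.9 CPM (0.87; 0.59 to 1.16) and Cxcl10 at 3.24 and 21.1 CPM (2.71; 1.82 to 3.74), the latter from 11 and 129 UMIs. In the cit/cit library, 7 of 59 positive cycling cells held 67.6% of the Cxcl9 UMIs, and 1 cell had 41 of the 129 Cxcl10 UMIs. The thinned shares of cycling cells with Cxcl9 were 3.60% in WT and 2.96% in cit/cit, which do not follow the CPM. For Cxcl10 they were 0.36% and 2.09%.

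Mature DC had 30.0 and 37.6 CPM of Cxcl9 (0.32; 0.11 to 0.54) and 9.55 and 14.2 CPM of Cxcl10 (0.57; 0.20 to 0.93). Both were higher in cit/cit cells but under 1.5-fold. The Cxcl9 ratio changed sign under 1 of 9 alternatives (−0.02), and that of Cxcl10 passed 1.5-fold under 3 of 9. Thinned shares with Cxcl9 were 1.94% and 1.66%. For Cxcl10, 1 cell of each library had 44 of 146 and 37 of 114 UMIs. At 3, 4, 5 and 6 mature markers the Cxcl10 ratio was −1.94, 1.91, 1.04 and 1.01. A higher level in cit/cit cells was not shared by all classes. Monocyte-like cells had 16.4 CPM of Cxcl9 in WT and 5.61 CPM in cit/cit cells (−1.54; −2.51 to −0.62), from 28 and 17 UMIs. Cxcl10 there was at 3.51 and 6.93 CPM (0.98; −0.37 to 2.58; 0.54 when cells were weighted equally). The part of the lower marker sums of this class, given above, was not tested. In macrophages Cxcl10 was at 89.2 CPM (69.8 to 112) and 27.9 CPM (14.9 to 47.7), a ratio of −1.68 (−2.65 to −0.81), but 2 WT cells had 33 and 29 of its 72 UMIs, and weighting cells equally turned the ratio to 0.55. Art3, on the other strand of Cxcl10, was at 2.06 and 2.17 CPM in all cells, and whether the counting used strand is not given in the sources used here.

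Cxcl16, the membrane-bound ligand of CXCR6, was lower in cit/cit cells in all 7 classes in which it had 20 UMIs, past 1.5-fold in 6 of them, and each of the 7 intervals lay below 0. The median ratio over these classes was −0.64. Its level was highest in mature DC, 453 CPM (443 to 464) in WT and 346 CPM (333 to 359) in cit/cit cells, which gave the smallest of the 7 ratios, −0.39 (−0.45 to −0.33). After thinning, 41.6% (39.4 to 43.8) of WT and 36.7% (34.0 to 39.4) of cit/cit mature cells had a UMI, unthinned 74.6% and 67.4%, against 0.88% and 0.82% of thinned and 4.35% and 4.07% of unthinned pDC. The erythroid gate had 8 Cxcl16 UMIs in 3 of 20 WT cells, 83.2 CPM (35.9 to 164), and 0 in cit/cit cells, which allows up to 38.9 CPM. The WT levels of cDC1 (72.9 CPM), Ccr2 cDC2 (54.6 CPM), cycling cells (18.8 CPM), cDC2 (18.5 CPM) and pDC (9.55 CPM) were below that WT value. Whether these few erythroid-gated cells lack Cxcl16, or measure a background, was not tested.

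Monocyte-like cells and Ccr2 cDC2 held the largest Cxcl16 differences. The level was 101 CPM (86.1 to 117) in WT and 31.7 CPM (25.7 to 38.7) in cit/cit monocyte-like cells (−1.67; −2.04 to −1.30), and 54.6 CPM (46.7 to 63.5) and 19.5 CPM (16.7 to 22.5) in Ccr2 cDC2 (−1.49; −1.80 to −1.18). In cDC2 it was 18.5 and 9.91 CPM (−0.90; −1.13 to −0.67). These 3 ratios stayed past 1.5-fold under every alternative. The sums of monocyte-like markers and of macrophage markers were both lower in cit/cit monocyte-like cells as well, as given above. Their part in the result was not tested.

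The ratios of cDC1 (72.9 and 47.1 CPM; −0.63, −0.83 to −0.43), cycling cells (18.8 and 12.4 CPM; −0.60, −1.10 to −0.10) and macrophages (177 and 114 CPM; −0.64, −1.12 to −0.17) were close to 1.5-fold. They dropped below it under 1 of 8, 4 of 8 and 2 of 8 alternatives, without a change of sign. In cDC1 the thinned shares of cells with Cxcl16 were 8.80% and 8.84%, which do not follow the CPM. Among cycling cells the ratio was nearer 0 in both strata of cDC1 markers, −0.07 (−1.17 to 1.11) in cells with fewer than 3 and −0.20 (−0.78 to 0.38) in cells with at least 3, and the latter were 25.9% of WT and 13.5% of cit/cit cycling cells.

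Within mature DC, Cxcl16 was higher in cells with more mature markers, 186, 331, 462 and 566 CPM at 3, 4, 5 and 6 markers in WT and 152, 327, 424 and 450 CPM in cit/cit cells. The ratio was −0.29, −0.02, −0.13 and −0.33. The widest gap was in mature cells with at least 2 cDC1 markers, 500 CPM (472 to 529) in 155 WT cells and 118 CPM (92.2 to 150) in 36 cit/cit cells (−2.08; −2.45 to −1.73). Leaving out all mature cells with a cDC1 marker left a ratio of −0.17 (−0.25 to −0.09).

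Adam10 and Adam17, the proteases that shed CXCL16, had a median ratio of 0.05 in mature DC and neither was past 1.5-fold. Zmynd15, which overlaps Cxcl16 on the other strand, was at 119 and 65.2 CPM in mature DC, 27.5 and 2.97 CPM in monocyte-like cells and 38.4 and 27.9 CPM in macrophages. In cDC1 it was at 1.53 and 0.91 CPM, far below the Cxcl16 level. Where both genes had UMIs, reads of one could not be told apart from those of the other if the counting ignored strand.

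Cells with Ccl22 mostly also had Cxcl16 and Ccl5. Of mature cells with Ccl22, 93.1% of 275 in WT and 86.4% of 59 in cit/cit cells had Cxcl16, against 71.6% and 66.5% of mature cells without Ccl22. For Ccl5 the values were 94.2% and 94.9%, against 88.9% and 93.4%. Cells with UMIs of 1 gene are deeper on average, and the shares were not matched for depth.

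The likeness of patterns was measured over 17 class and library pairs with at least 50 cells, as Pearson's r of log2(CPM + 1) among 12101 genes. It gives a description since the points share libraries. Mature DC entered split by cDC1 markers. Those with at least 2 entered from WT only (155 cells, against 36 in cit/cit). This WT point had the highest Ccl22 and Cxcl16, 126 and 500 CPM, and the genes named below for these 2 members were highest in that class. Among members, r was 0.88 for Ccl22 with Cxcl16, 0.88 for Ccl3 with Ccl4, 0.72 for Cxcl9 with Cxcl10, 0.71 for Ccl22 with Ccl5 and −0.27 for Ccl5 with Cxcl9. The genes most like Ccl22 were Rragd (0.96), Il15ra (0.94) and Tnfrsf4 (0.94). Those most like Cxcl16 were Itgb1 (0.94), Poglut1 (0.94) and Arhgap31 (0.93), and those most like Ccl5 were Nck1 (0.96), D130040H23Rik (0.96) and Crebl2 (0.96). Cxcl9 was most like Tlr11 (0.87), Psma3 (0.86) and Atpif1 (0.84), and Cxcl10 like Mrps27 (0.81), Snhg12 (0.81) and Tgds (0.80). For Ccl3 these were Il1rn (0.93), Negr1 (0.92) and St6galnac3 (0.91), and for Ccl4 they were Ccl3 (0.88), Gm7644 (0.88) and Negr1 (0.87). Ccl17, at the detection limit, had Zfp764 (0.78), Gm47689 (0.76) and Zbtb17 (0.76).

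Of the 30 other chemokine ligands listed, 29 were found among the genes counted, and 11 had at least 20 UMIs over all cells. Ccl6 and Ccl9 had 5722 and 2658 UMIs in all. Their highest levels over both libraries were 180 CPM in monocyte-like cells and 81.1 CPM in Ccr2 cDC2. In mature DC 8 of the ligands had 20 UMIs. Of these, 4 were past 1.5-fold higher and 2 lower in cit/cit cells, against 12.0% and 8.24% of all genes. Ccl9 was at 16.4 and 39.4 CPM (1.26; 1.02 to 1.51) and Ccl6 at 10.99 and 21.3 CPM (0.95; 0.64 to 1.27), both CC ligands of myeloid cells. Pf4 and Cxcl17 were higher from 29 and 28 UMIs in all. Lower besides Cx3cl1 was Ccl19, a CCR7 ligand with near-identical copies in the mouse genome, at 9.42 and 4.60 CPM (−1.03; −1.60 to −0.50). Ccl6 and Ccl9 went the other way in cDC1, 39.3 and 23.5 CPM (−0.74; −1.02 to −0.46) and 7.63 and 4.11 CPM (−0.89; −1.56 to −0.23), where 2 of 3 tested ligands were lower against 10.9% of all genes. In cDC2 Ccl6 was at 14.5 and 35.3 CPM (1.29; 1.09 to 1.49).

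Receptors of the CCR4, CXCR3 and CXCR6 ligands had few UMIs in DC. Ccr4 had 7 UMIs in all cells of both libraries and Cxcr6 241. Cxcr3 was highest in pDC. In mature DC Cxcr3 was at 0.85 and 1.62 CPM (0.93; −0.30 to 2.15), from 13 UMIs in each library, with an interval that includes 0.

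The level of a chemokine over a whole library depends on how many cells of each class it holds. Mature DC were 25.6% of WT and 11.2% of cit/cit cells and gave 30.0% and 11.1% of the UMIs. Ccl22 was at 21.0 and 2.73 CPM over all cells, a log2 ratio of −2.94. With every class kept at its WT level, the cit/cit class makeup would give 8.23 CPM, a part of −1.35, which leaves −1.59 for the levels within classes.

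The same split separated the other members. Ccl5 was lower over all cells, 1582 and 1089 CPM (−0.54), from a makeup part of −0.93 and a level part of 0.39 in the other direction. Cxcl16, at 165 and 55.4 CPM (−1.57), had parts of −0.97 and −0.60. Cxcl9, at 51.2 and 97.1 CPM (0.93), had a makeup part of −0.06 and a level part of 0.99, and Cxcl10, at 9.80 and 20.01 CPM (1.03), had −0.24 and 1.27. For Ccl3, at 9.27 and 6.55 CPM (−0.50), the parts were −0.39 and −0.12. For Ccl4, at 20.7 and 12.0 CPM (−0.79), they were −0.50 and −0.29. The split takes in every gate, NK-like and T cells included. In the NK-like gate (33 WT and 28 cit/cit cells) Ccl4 was at 2243 and 218 CPM and Ccl3 at 811 and 115 CPM. The level parts of Ccl3 and Ccl4 are therefore not those of the DC classes alone. Ratios of Ccl3 and Ccl4 were 1.01 and 1.75 in cDC2 and 0.07 and 0.55 in mature DC. They were −0.44 and −0.37 in monocyte-like cells and −0.85 and −0.42 in macrophages. The split depends on the gates, and cells sorted per mouse are not recorded, so the share of mature DC has no error here.

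**Figure D5:**
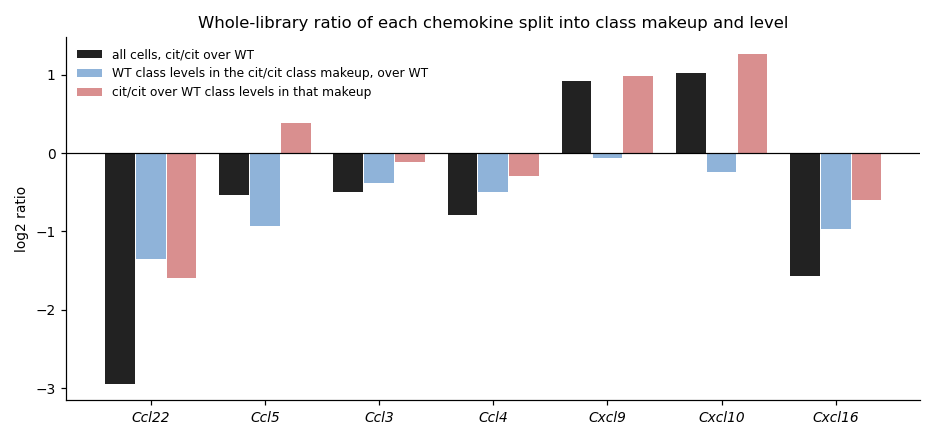
Log2 ratio of cit/cit over WT (y axis) of 7 chemokines over all cells (black), the part given by class makeup with WT class levels (blue) and the remaining part (red); Ccl17 is left out for its few UMIs. The 2 parts of Ccl5 point in opposite directions, −0.93 and 0.39.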

How the data were processed

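The authors prepared 3′ single-cell libraries on the 10X Genomics platform, 1 for each genotype, and counted UMIs with Cell Ranger 5.0.1 against GRCm38 (mm10). The deposited values are these raw UMI counts per gene and called cell, without normalization. No cell had fewer than 500 UMIs. The submitters' notes also name Seurat. The gene annotation, the treatment of intronic reads and the use of strand in counting are not given in the sources used here.

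All deposited cells were used and doublets were not removed. A cell entered the first gate whose minimum of distinct markers with a UMI it reached: T, B, NK, neutrophil, erythroid, macrophage and monocyte-like cells (3), pDC (4), mature DC (3), cycling cells (4), cDC1 (3), Ccr2 cDC2 (2) and cDC2 (2). UMIs were summed per class and library and scaled to the class total. The members and lists were chosen with earlier results of these data known, and the gate minimums after the values were seen. Named besides the 8 members are the 3 genes whose log2(CPM + 1) correlated best with each, among genes of at least 200 UMIs that are no gate markers, and genes of the listed chemokine systems that were past 1.5-fold or needed for context. For shares of cells with a UMI, cells were thinned to 1500 UMIs. Where no such cell or UMI was found, the value said to be allowed is that of 3 cells or 3 UMIs. It is not the upper end of the exact interval, which is somewhat higher. PCR duplicates are merged by UMIs, and the intervals and the floor of 3 UMIs cover counting error only, at 95%.

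Alternatives were scaling by the median ratio over genes, the mean over cells of UMIs per 10000, leaving out cells over 10% mitochondrial UMIs, under 1500 UMIs or under 6% ribosomal protein UMIs, leaving out the highest Scrublet scores (0.8% per 1000 cells, 488 WT and 1063 H2-Aa cit/cit cells), 1 marker more for every gate, no UMI minimum and a minimum of 100 UMIs. Leaving out the top cell of each library and the mature cells with any cDC1 marker were chosen after seeing the data. Ratios and intervals were tested on simulated Poisson counts with known fold changes. Those counts lack the uneven spread of UMIs over cells seen here, so they do not show how the intervals behave with it. Python 3.11.15, numpy 2.4.6, scipy 1.17.1, pandas 2.3.3, scanpy 1.11.5 and matplotlib 3.10.9 were used. A gene of the listed systems is not reported here.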

Additional observations from a re-analysis of the deposited data

Results flagged for a closer look

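The pair of CXCR3 ligands differed in direction between classes. Cxcl9 had a log2 ratio of H2-Aa cit/cit over WT of 1.86 in Ccr2 cDC2 and of −1.54 in monocyte-like cells. Cxcl10 had a ratio of 2.81 in Ccr2 cDC2 and of −1.68 in macrophages. In both cases the single library pair pointed one way in one class and the other way in the other. The difference between classes was not tested. The Cxcl9 value in monocyte-like cells came from 28 WT and 17 H2-Aa cit/cit UMIs. For Cxcl10 in macrophages, 2 WT cells had 33 and 29 of the 72 WT UMIs. That ratio turned to 0.55 when cells were weighted equally, so its direction depends on the weighting.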

How the results depend on the processing

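No paired analysis was possible because each genotype has 1 library and the result comes from no test. Of 357 values under alternatives, 296 moved by less than their counting interval and 60 by more, and 1 pair past 1.5-fold changed sign, Cxcl10 in macrophages, which was 0.55 as the mean over cells. That setting gave Ccl5 in mature DC 0.71, Cxcl16 in mature DC −0.22, Ccl3 in monocyte-like cells 0.19, Ccl4 in macrophages −1.24 and Cxcl9 in cDC1 1.03. Without the highest doublet scores, Ccl5 and Cxcl16 in mature DC were 0.69 and −0.18 and Ccl3 in monocyte-like cells 0.94. Scaling by the median ratio gave Ccl5 and Cxcl16 in mature DC 0.41 and −0.49, and leaving out cells of low ribosomal share 0.42 and −0.48. With 1 marker more, Ccl5 in mature DC was 0.57. Without mature cells with a cDC1 marker, Ccl22 was −0.92 and Cxcl16 −0.17. Without the top cells, Ccl3 in monocyte-like cells was 0.23, Ccl4 in macrophages −2.22 and Cxcl9 in cDC1 1.36. The causes were not tested. Pairs past 1.5-fold numbered 14 to 21 higher and 7 to 15 lower across settings, the 7 with a minimum of 100 UMIs, where 34 pairs were left. Of the 29 pairs past 1.5-fold, 19 stayed past it in all their alternatives, and of the 16 others 11 went past it and 7 changed sign in at least 1. An alternative that left a pair with too few UMIs gave no value for it. With 1 library per genotype, nothing here measures the spread between animals, and 45 of the 64 pairs had enough UMIs for a ratio.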

Other observations

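Cells outside the 8 classes also held chemokine UMIs. The cells that passed no gate, with median depths of 1647 and 1748 UMIs, had a Ccl22 level of 6.14 CPM in the WT library and 0.34 CPM in the other, from 12 and 1 UMIs. Cxcl9 was at 65.5 and 32.4 CPM there (−1.02; −1.42 to −0.62), the other direction from cDC1, and Cxcl16 at 75.7 and 31.3 CPM (−1.27; −1.67 to −0.89). A single WT cell passed the T-cell gate and held 264 UMIs of Ccl5, 96 of Ccl4 and 18 of Ccl3, while 3 H2-Aa cit/cit cells of that gate held 69 UMIs of Ccl5 and none of Ccl3 or Ccl4. The erythroid gate held 18 Cxcl9 UMIs in 20 WT cells and 1 in 14 H2-Aa cit/cit cells.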
